A study of Mus musculus with 4 samples.

Results

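The genes described here are the BMP ligands Bmp4, Bmp2 and Bmp7, the activin subunits Inhba and Inhbb, the antagonists Fst (follistatin) and Wfikkn2, and the target genes Id1, Id2 and Id3. These 10 genes were matched by symbol among the 31053 features of 4 single-cell RNA-seq libraries of murine thymic epithelial cells (TECs), and all 10 were found. The libraries came from the EpCAM+CD45-TER119- thymic fraction of 6-week-old C57BL/6 mice. WT-Control mice were wild type and had received control IgG, and WT-RANKL-Ab mice were wild type and had received an antibody that neutralizes RANKL. Cd40-/- Control and Cd40-/- RANKL-Ab mice lacked Cd40 in all cells (CD40KO in the labels) and had received the control IgG and the antibody, respectively. The antibody (5 mg/kg) or IgG was injected at 4 weeks of age and the thymus was taken 2 weeks later. Cells of 3 mice were pooled in each library, so every condition is 1 library without replicates. No test between conditions was therefore possible, and all intervals given here are 95% intervals that cover counting error only.

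BMPs and activins are secreted dimers of the TGF-beta superfamily that assemble type I and type II serine/threonine kinase receptors. BMP receptors phosphorylate SMAD1, SMAD5 and SMAD9, whereas activin receptors phosphorylate SMAD2 and SMAD3, and both branches use SMAD4 as a common partner. Follistatin binds activins tightly and keeps them from their receptors, and WFIKKN2 is a secreted multidomain protein that binds myostatin and GDF11. The Id genes encode helix-loop-helix proteins without a DNA-binding region that titrate E proteins, and they are classical direct targets of BMP signaling that respond to other signals as well. In the thymus, BMP4 is known as a product of mesenchymal and endothelial cells that sustains Foxn1 in TECs. RANK and CD40 are TNF receptor superfamily members on medullary TECs (mTECs), and the comparison of the 4 libraries addresses how cells change when either or both signals are missing.

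Promoter sequence is shown for Bmp4, Inhba and Inhbb. Only their promoter windows had an annotated transcript start and no annotated exon of the gene before it. Bmp4 and Inhba were highest in progenitor-like cells in at least 3 of 4 libraries, and Inhbb, the second activin subunit, was spread over many classes. Each line gives the 250 bases before the transcription start from RefSeq (GRCm38.p6), 5′ to 3′, and capitals mark E-boxes (CANNTG), the site bound by the E proteins that Id proteins titrate.
Bmp4 promoter (chr14:46390670-46390919, minus strand): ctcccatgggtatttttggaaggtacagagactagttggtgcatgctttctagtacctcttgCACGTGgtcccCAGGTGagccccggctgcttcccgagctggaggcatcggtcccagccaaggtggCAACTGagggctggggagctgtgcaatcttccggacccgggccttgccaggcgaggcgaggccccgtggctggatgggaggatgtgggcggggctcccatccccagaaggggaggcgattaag
Inhba promoter (chr13:16011601-16011850, plus strand): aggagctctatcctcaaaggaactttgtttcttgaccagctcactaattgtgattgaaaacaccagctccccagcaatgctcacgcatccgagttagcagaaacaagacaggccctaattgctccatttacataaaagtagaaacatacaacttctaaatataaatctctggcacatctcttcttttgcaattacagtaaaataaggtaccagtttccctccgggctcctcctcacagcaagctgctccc
Inhbb promoter (chr1:119422249-119422498, minus strand): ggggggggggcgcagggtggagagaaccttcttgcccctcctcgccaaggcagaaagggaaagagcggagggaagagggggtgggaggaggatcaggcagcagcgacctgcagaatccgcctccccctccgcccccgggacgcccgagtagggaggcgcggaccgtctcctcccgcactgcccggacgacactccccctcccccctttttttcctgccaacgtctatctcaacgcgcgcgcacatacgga
Windows of 300 bases (250 before and 50 after the start) were found for 6 of the 10 genes, Bmp4, Inhba, Inhbb, Id2, Id3 and Wfikkn2. The windows of Id3 and Wfikkn2 lie over annotated exons inside the genes, where GENCODE places no transcript start, and that of Id2 also overlaps an exon before its start. An E-box was present in the windows of Bmp4 (3 matches), Id2 (1 match) and Wfikkn2 (5 matches), and in 72.3% of all 32851 promoter windows of the same length. GGCGCC, a GC-rich core that BMP SMADs bind, was found only in the Id2 window among the 6 and in 11.9% of all windows. The short SMAD element GTCT, counted with its complement AGAC, was present in all 6 windows and in 88.0% of all windows. Both strands were searched, and a match is a description of letters and not a site of binding.

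After removal of cells with fewer than 200 detected genes or over 25% mitochondrial UMIs (unique molecular identifiers, each standing for 1 captured transcript), 10218 and 7164 cells remained in WT-Control and WT-RANKL-Ab and 8591 and 2082 cells in the Control and RANKL-Ab libraries of Cd40-/- mice, with 19153685 to 95277834 UMIs per library. Cd40 itself was at 110.0 counts per 1000000 UMIs (CPM) in WT-Control and 28.8 CPM in WT-RANKL-Ab, and at 5.75 and 4.75 CPM in the Control and RANKL-Ab libraries of Cd40-/- mice. Where 4 values follow one another, they are in this order of libraries. The genotype labels therefore matched the order of Cd40 levels, although 3′ reads of the gene were still counted in the deficient mice. Both Cd40-/- libraries shared 205 cell barcodes, which were 2.39% of the cells of Cd40-/- Control and 9.85% of those of Cd40-/- RANKL-Ab, whereas the other pairs of libraries shared 17 to 116 barcodes and at most 1.42% of either library. In 180 of the 205, the barcode held less than 5% as many UMIs in Cd40-/- Control as in Cd40-/- RANKL-Ab, and 105 of these 180 were in the same class in both. Values without the shared barcodes are given beside the main results of these libraries. Leaving these barcodes out also lowered Inhba in progenitor-like cells of Cd40-/- RANKL-Ab (4.21 to 2.64 CPM, 7 to 4 UMIs) and Bmp4 in its Ccl21a-high mTEC-like cells (0.966 to 0.529 CPM, 6 to 3 UMIs).

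Cells were placed in classes by summed UMIs of marker genes, with cuts that were set after the scores were seen, and none of the 10 genes was a marker. The 3 main classes were progenitor-like cells (Pdpn, Ackr4, Dcn and Serpinf1; 129, 457, 253 and 203 cells in the order of libraries just given), Ccl21a-high mTEC-like cells (Ccl21a, Krt5, Krt14 and Itgb4; 3197, 3185, 1784 and 775 cells) and cortical TEC (cTEC)-like cells (Psmb11, Prss16, Ccl25, Tbata, Ly75 and Cxcl12; 141, 423, 645 and 286 cells). Cells that passed both the progenitor and the Ccl21a gate (48, 133, 100 and 232 cells) were kept as progenitor-marker+ Ccl21a-high cells. Progenitor-like cells were epithelial, with 3427 to 3636 CPM of Epcam, Krt8, Krt18 and Foxn1 together against 61.3 to 129 CPM of 7 mesenchymal markers. Their leading genes Dcn, Igfbp7 and Prelp are also known from mesenchymal cells. They held 2098 to 2816 CPM of the cTEC markers, compared with 35243 to 42378 CPM in cTEC-like cells. Within 20% of the cut lay 483 cells below and 374 above the progenitor gate, 487 and 456 for the Ccl21a gate, and 272 and 219 for the cTEC gate.

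**Figure D1:**
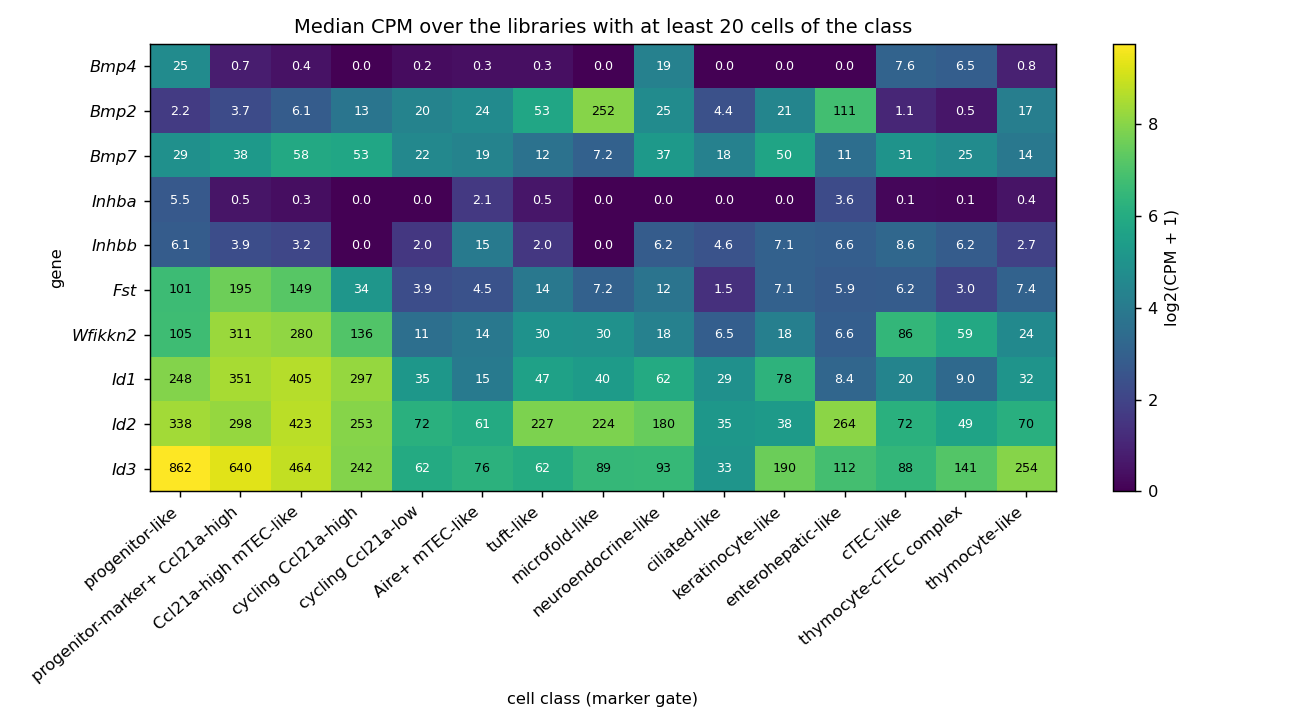
Median CPM of each gene (rows) over the libraries in which the class (columns) had at least 20 cells, with the value printed and the colour on a log2(CPM + 1) scale. Bmp4, Inhba and Id3 had their highest or near-highest medians in progenitor-like cells, and Bmp2 in microfold-like and enterohepatic-like cells. Those of Fst, Wfikkn2 and Id1 were in Ccl21a-high classes, and that of Id2 was in Ccl21a-high mTEC-like cells, followed by progenitor-like cells.

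Bmp4 (chr14:46383520-46390669, minus strand) was the ligand that set progenitor-like cells apart. Its level there was 26.0 CPM (17.0 to 38.1) in WT-Control and 25.4 CPM (19.9 to 31.9) in WT-RANKL-Ab, compared with 25.3 CPM (17.8 to 35.1) and 24.0 CPM (17.2 to 32.7) in the Control and RANKL-Ab libraries of Cd40-/- mice. The 4 libraries thus lay within one another's counting intervals, on 26, 74, 36 and 40 UMIs, and without the shared barcodes Cd40-/- RANKL-Ab was at 21.8 CPM. cTEC-like cells, with 7.13 CPM, 4.33 CPM, 8.99 CPM and 8.01 CPM, and droplets with both thymocyte and cTEC markers, with 5.08 to 11.2 CPM, were lower. In Ccl21a-high mTEC-like cells, Bmp4 was close to absent, at 0.131 to 0.966 CPM on 3 to 7 UMIs per library. Progenitor-like cells were the highest class in 3 of 4 libraries. In WT-Control, 46 neuroendocrine-like cells had 34.0 CPM on 11 UMIs, and the interval of 17.0 to 60.8 CPM spans the progenitor-like value. No UMI was found in the 38 neuroendocrine-like cells of WT-RANKL-Ab, where the interval reaches up to 22.7 CPM. Progenitor-like cells were split, after the data were seen, by 10 cTEC marker UMIs per 10000. Bmp4 was 12.5 CPM (5.41 to 24.7) at or above and 49.7 CPM (29.4 to 78.5) below the split in WT-Control. The other 3 libraries did not show this order, with 25.4 to 27.4 CPM at or above and 14.1 to 25.4 CPM below.

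Over all cells, Bmp4 spanned a far wider range than the 24.0 to 26.0 CPM of progenitor-like cells. It was 0.892 CPM in WT-Control, 3.12 CPM in WT-RANKL-Ab, and 2.38 and 6.53 CPM in the Control and RANKL-Ab libraries of Cd40-/- mice, or log2 ratios to WT-Control of 1.81, 1.42 and 2.87. Progenitor-like cells were 1.26%, 6.38%, 2.94% and 9.75% of the cells of these libraries, and cTEC-like cells were 1.38%, 5.90%, 7.51% and 13.7%. When the 9 groups of cells with at least 20 cells in every library were weighted as in WT-Control, the log2 ratios were 0.81, 0.41 and 2.05. These 9 include cells that passed no gate (27.4% of the WT-Control weight) and mixed cells (3.70%). In cells that passed no gate, Bmp4 was 1.52 CPM in WT-Control and 15.3 CPM on 13 UMIs in Cd40-/- RANKL-Ab. With the 7 gated classes alone, a weighting added after the data were seen, the log2 ratios were -0.16, 0.41 and 0.73. The 9 groups held 47.7%, 92.2% and 55.2% of the UMIs in the first 3 libraries, so they cover less of both control libraries. Of the Bmp4 UMIs, 30.6%, 48.7%, 22.8% and 32.0% lay in progenitor-like cells.

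**Figure D2:**
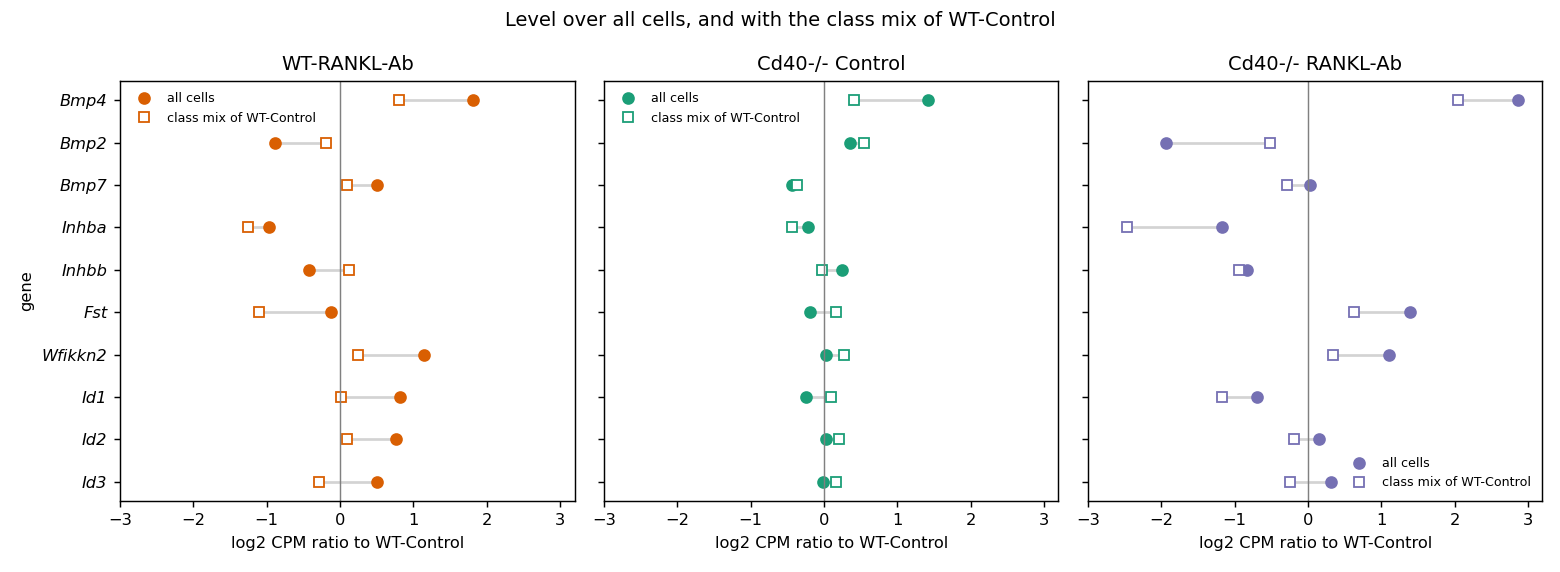
Log2 ratio of CPM to WT-Control for each gene, over all cells (filled circles) and with the 9 groups of cells found in all libraries, cells without a gate included, weighted as in WT-Control (open squares), in 1 panel per library. In Cd40-/- RANKL-Ab the square lies nearer to 0 than the circle for Bmp4, Bmp2 and Wfikkn2, at 2.05, -0.52 and 0.34, and farther from 0 for Inhba and Id1, at -2.47 and -1.17.

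Bmp2 (chr2:133552159-133562885, plus strand), a close relative of Bmp4, followed other cells. Its level was highest in microfold-like cells (markers Gp2, Ccl9, Ccl20, Tnfaip2 and Spib), with 142, 252 and 321 CPM in the first 3 libraries, and only 1 such cell was present in Cd40-/- RANKL-Ab. The intervals of WT-Control (124 to 162 CPM) and Cd40-/- Control (283 to 364 CPM) did not overlap. Enterohepatic-like cells followed with 107 CPM in the WT and 115 CPM in the Cd40-/- control library. Tuft-like cells had 35.0 CPM, 52.4 CPM, 54.5 CPM and 69.4 CPM in the 4 libraries, the last on 29 UMIs of 58 cells. Aire+ mTEC-like cells were lower, with 24.2, 12.1 and 32.8 CPM in the first 3 libraries. In progenitor-like cells Bmp2 was at 0.704 to 5.99 CPM, so that the classes rich in Bmp4 and those rich in Bmp2 were different ones. Over all cells Bmp2 was 21.5 CPM, 11.7 CPM, 27.6 CPM and 5.59 CPM. In WT-Control, 42.9% of its UMIs lay in Aire+ mTEC-like cells, which were 31.6% of the cells there and 0.288% in Cd40-/- RANKL-Ab. With the 9 groups weighted as in WT-Control, the log2 ratio of Cd40-/- RANKL-Ab was -0.52 in place of -1.95, and with the 7 gated classes alone it was 0.63.

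Bmp7 (chr2:172868012-172940321, minus strand) was broad and was highest in Ccl21a-high mTEC-like cells in 3 of 4 libraries. It was 69.6 CPM (66.3 to 73.1) in WT-Control, 66.6 CPM (63.3 to 70.1) in WT-RANKL-Ab, and 49.8 CPM (45.7 to 54.1) and 45.7 CPM (40.6 to 51.4) in the Control and RANKL-Ab libraries of Cd40-/- mice. The libraries of each genotype overlapped and those of the 2 genotypes did not, a difference of 1.40-fold between the controls and 1.52-fold between Cd40-/- RANKL-Ab and WT-Control. Without the shared barcodes the log2 ratios of the Cd40-/- libraries to WT-Control were -0.48 and -0.58. These cells were also split, after the data were seen, by 10 UMIs of Gpx3 and Mgp per 10000. At or above the split Bmp7 was 63.8, 56.4, 42.1 and 38.1 CPM, and the genotypes stayed apart. Below it Bmp7 was 78.9 CPM (73.2 to 84.9), 76.2 CPM (71.2 to 81.4), 63.8 CPM (56.1 to 72.3) and 66.7 CPM (54.8 to 80.4). The intervals of the 2 control libraries did not overlap there either, whereas the other pairs of libraries from different genotypes overlapped. Keratinocyte-like cells had 46.4 to 57.1 CPM on 8 to 29 UMIs per library and were the highest class in Cd40-/- Control. Progenitor-like cells had 23.9 to 30.1 CPM, and their 4 intervals overlapped.

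The activin subunits were low. Inhba (chr13:16011851-16031621, plus strand), the beta A subunit, was highest in progenitor-like cells in 4 of 4 libraries, at 7.99, 6.86, 4.22 and 4.21 CPM, but on only 41 UMIs in all. The 4 intervals overlapped widely, from 1.55 to 15.7 CPM. Other classes came close to progenitor-like cells in single libraries. Enterohepatic-like cells of WT-Control had 7.26 CPM (2.36 to 16.9) on 5 UMIs. Thymocyte-like cells of Cd40-/- Control had 4.21 CPM on 7 UMIs, beside 4.22 CPM on 6 UMIs in progenitor-like cells. Aire+ mTEC-like cells had 1.90 to 2.28 CPM on 117 UMIs, and Ccl21a-high mTEC-like cells had 0.180 to 0.636 CPM on 19 UMIs. Of the Inhba UMIs of WT-Control, 5.48% lay in progenitor-like cells, 47.3% in Aire+ mTEC-like cells and 37.7% in cells that passed no gate. Within progenitor-like cells, an Inhba UMI was found in 14 of 121 cells with a Bmp4 UMI (11.6%) and in 2.71% of the others, and the cells with Bmp4 were deeper, with a median of 7128.0 UMIs compared with 5978.0. Inhbb (chr1:119415465-119422248, minus strand), the beta B subunit, was spread more evenly. It was 11.9, 14.6 and 17.8 CPM in Aire+ mTEC-like cells of the first 3 libraries, and 8.40 to 11.3 CPM in cTEC-like cells. Progenitor-like cells had at most 7.04 CPM and Ccl21a-high mTEC-like cells 2.63 to 4.36 CPM. A level of 30.4 CPM in keratinocyte-like cells of WT-Control rested on 19 UMIs and stood beside 1 UMI in each of WT-RANKL-Ab and Cd40-/- Control.

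**Figure D3:**
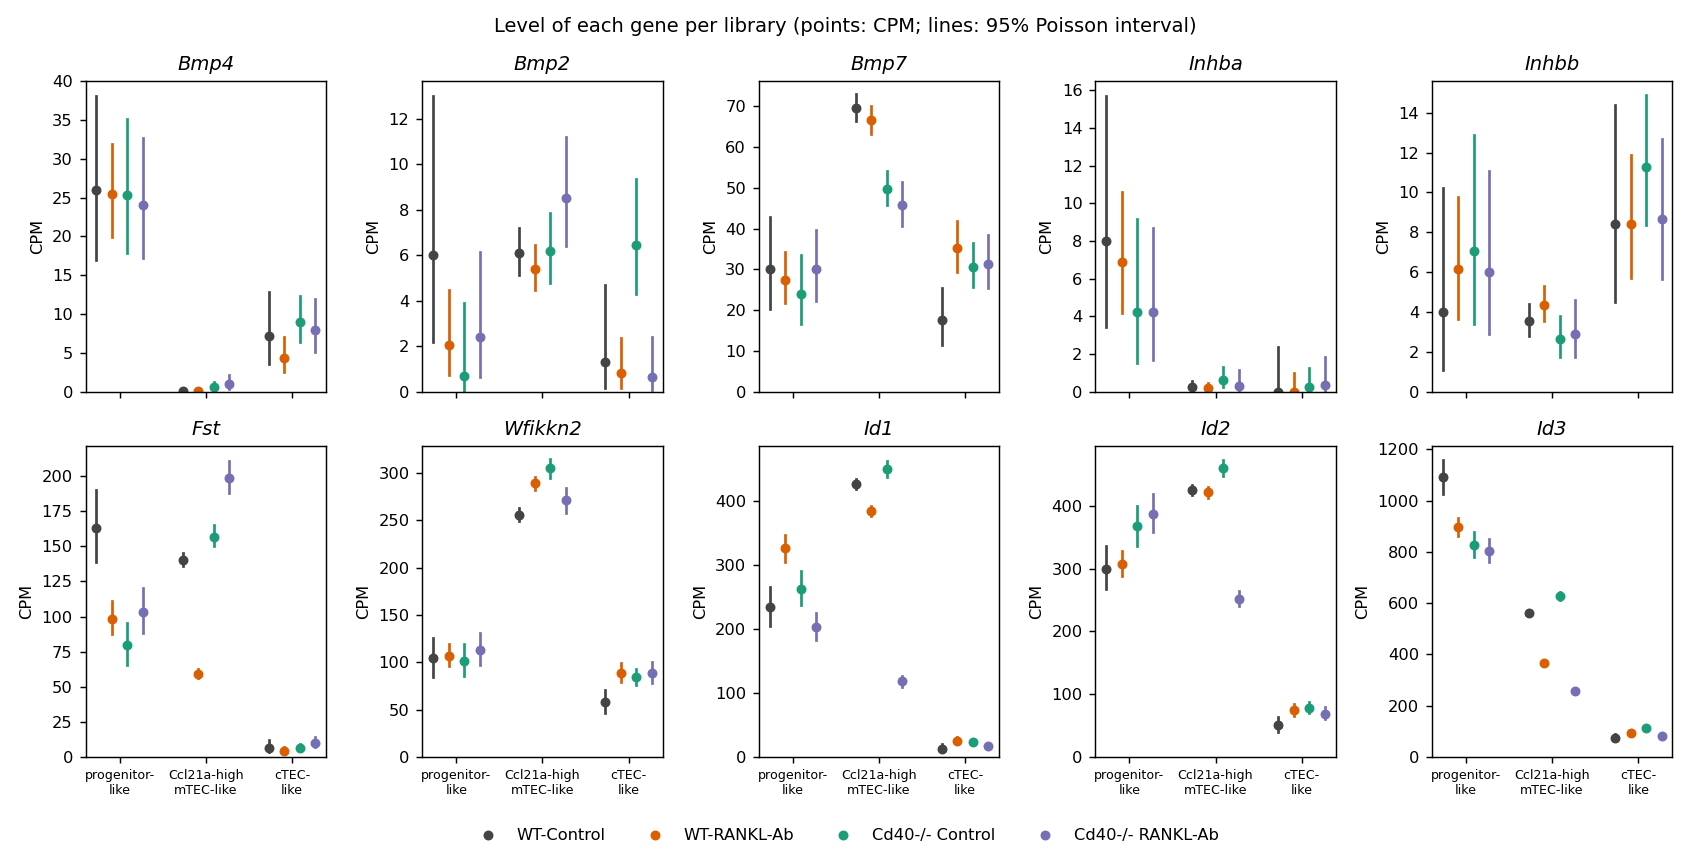
CPM of the 10 genes in progenitor-like, Ccl21a-high mTEC-like and cTEC-like cells of each library, as points with 95% Poisson intervals and 1 linear axis per gene. Bmp4 lies between 24.0 and 26.0 CPM in progenitor-like cells of all 4 libraries, Fst of WT-RANKL-Ab lies at 59.0 CPM in Ccl21a-high mTEC-like cells, and Id1 of Cd40-/- RANKL-Ab lies at 118 CPM there.

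Fst (chr13:114452290-114458951, minus strand), the activin antagonist, was strongest in cells of the Ccl21a and progenitor gates. Among Ccl21a-high mTEC-like cells it was 140.4 CPM in WT-Control and 59.0 CPM in WT-RANKL-Ab, and 157 and 199 CPM in the Control and RANKL-Ab libraries of Cd40-/- mice. WT-RANKL-Ab was thus low and Cd40-/- RANKL-Ab high, and none of the 4 counting intervals overlapped. The antibody went with a 2.38-fold lower level in WT mice (log2 ratio -1.25, -1.34 to -1.16) and with a 1.27-fold higher level in Cd40-/- mice (log2 ratio 0.34, 0.23 to 0.45). Without the shared barcodes the second ratio was 0.38 (0.27 to 0.48). The progenitor markers summed to 216, 289, 419.7 and 722 CPM in these cells, highest in the library with the highest Fst level, and their part in it was not tested. The share of Ccl21a-high mTEC-like cells with a Fst UMI, after each cell was thinned to 1000 UMIs, was 12.4%, 5.83%, 14.9% and 17.5%, compared with 0.269% in thymocyte-like cells, where Fst is not known to be made (37.5% over the libraries and 2.11% without thinning, at median depths of 6335.0 and 1761.5 UMIs). Thinning left out 210 of the former and 205 of the latter cells. In all 4 libraries the level was highest in progenitor-marker+ Ccl21a-high cells, at 194 CPM, 108 CPM, 196 CPM and 249 CPM. The antibody ratio there was -0.85 (-1.30 to -0.39) in WT mice and 0.35 (0.05 to 0.65) in Cd40-/- mice, the latter 0.27 (-0.03 to 0.57) without the shared barcodes.

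In progenitor-like cells Fst was 163 CPM (WT-Control), 98.4 CPM (WT-RANKL-Ab), 79.6 CPM (Cd40-/- Control) and 103 CPM (Cd40-/- RANKL-Ab). WT-Control stood above the other 3 libraries, 1.65-fold, 2.05-fold and 1.58-fold, respectively. The 129 cells of WT-Control also held more of other marker lists, with 123 CPM of the Aire+ list against 4.12, 19.0 and 1.80 CPM and 68.9 CPM of the microfold list against 9.26, 33.1 and 6.61 CPM. Myeloid markers were at 83.9 CPM there and at 4.81 to 12.0 CPM in the other libraries. Their part in the Fst level was not tested. Cells below the split on cTEC markers had the higher Fst level in all 4 libraries, with 218, 147, 182 and 132 CPM against 132, 76.7, 53.8 and 93.6 CPM at or above it. Below this split lay 55, 153, 54 and 53 of the 129, 457, 253 and 203 cells. The part of this mix in the Fst levels was not tested. Ccl21a-high mTEC-like cells were split as for Bmp7, again after the data were seen, by 10 UMIs of Gpx3 and Mgp per 10000. Fst was 185, 91.4, 189 and 236 CPM at or above this split and 70.5, 28.6, 98.2 and 97.0 CPM below it. The low level of WT-RANKL-Ab was thus present on both sides, whereas Cd40-/- RANKL-Ab was above Cd40-/- Control only at or above the split. At or above it lay 1940, 1481, 1165 and 576 cells, and below it lay 1257, 1704, 619 and 199 cells. The part of this mix in the Fst levels of the whole class was not tested. Fst was low elsewhere, with 4.18 to 4.76 CPM in Aire+ mTEC-like cells and 4.33 to 10.0 CPM in cTEC-like cells. In tuft-like cells it was 13.6 CPM, 5.07 CPM, 15.2 CPM and 14.4 CPM on 51, 21, 24 and 6 UMIs, with WT-RANKL-Ab again lowest. Cycling Ccl21a-high cells, 41 to 55 per library, had 61.4, 12.1 and 34.2 CPM in the first 3 libraries.

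Wfikkn2 (chr11:94235956-94246005, minus strand) was, like Fst, strongest in Ccl21a-high classes, but did not share its differences between conditions. Ccl21a-high mTEC-like cells had 256 CPM, 289 CPM, 305 CPM and 271 CPM, a span of at most 1.19-fold from WT-Control. Progenitor-marker+ Ccl21a-high cells had 300.1 to 326 CPM and were the highest class in 3 of 4 libraries. Progenitor-like cells lay lower, at 104, 107, 101 and 113 CPM, with overlapping intervals. cTEC-like cells had 57.7 CPM in WT-Control and 84.2 to 88.6 CPM in the other 3 libraries, where Fst was at 4.33 to 10.0 CPM over the libraries. Over all cells, Wfikkn2 was 79.4 CPM, 175 CPM, 81.2 CPM and 171 CPM, and with the class mix of WT-Control the log2 ratios of WT-RANKL-Ab and Cd40-/- RANKL-Ab were 0.24 and 0.34 in place of 1.14 and 1.10, or 0.17 and 0.09 with the 7 gated classes alone. Ccl21a-high mTEC-like cells were 31.3%, 44.5%, 20.8% and 37.2% of the libraries. In Aire+ mTEC-like cells Wfikkn2 was 12.5, 37.6 and 13.9 CPM in the first 3 libraries, and the cells of WT-RANKL-Ab were shallower there, with a median of 2432.0 UMIs compared with 10843 and 9046.0.

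**Figure D4:**
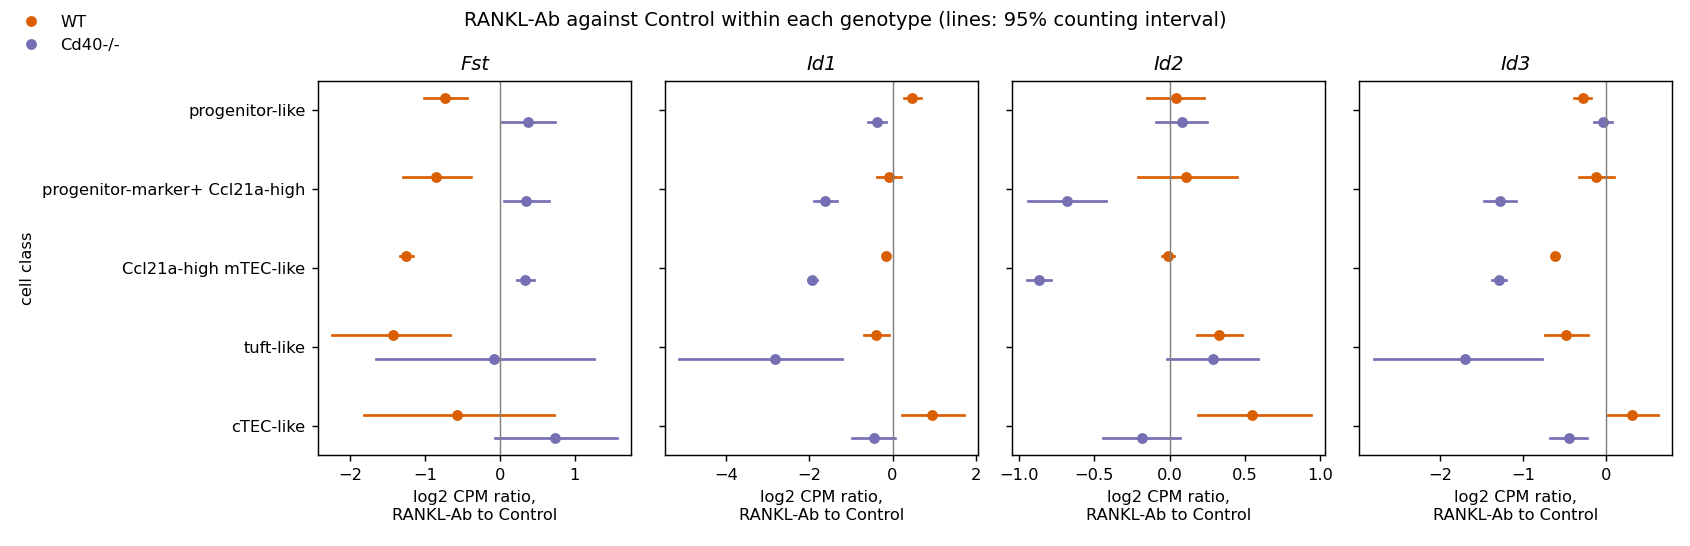
Log2 ratio of CPM between RANKL-Ab and Control within WT (orange) and within Cd40-/- (purple) mice for Fst, Id1, Id2 and Id3 in 5 cell classes, with 95% counting intervals and an axis of its own in each panel. In Ccl21a-high mTEC-like cells Fst is at -1.25 in WT and 0.34 in Cd40-/- mice, and Id1 is at -0.15 and -1.93.

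Id1 (chr2:152736251-152737410, plus strand) was 426 CPM in WT-Control, 384 CPM in WT-RANKL-Ab, and 449.9 and 118 CPM in the Control and RANKL-Ab libraries of Cd40-/- mice in Ccl21a-high mTEC-like cells. Only the library of Cd40-/- mice with the antibody was low, 3.81-fold below Cd40-/- Control (log2 ratio -1.93, -2.04 to -1.82) and 3.61-fold below WT-Control. Without the shared barcodes the first ratio was -1.95 (-2.07 to -1.83). After thinning, the share of cells with an Id1 UMI was 30.6%, 26.4%, 31.5% and 8.34%, compared with 2.42% in thymocyte-like cells (63.6% over the libraries and 5.17% in thymocyte-like cells without thinning). Progenitor-marker+ Ccl21a-high cells again had their lowest level in Cd40-/- RANKL-Ab, with 396 CPM, 374 CPM, 329 CPM and 107 CPM. The low level was present on both sides of the Gpx3 and Mgp split, at 123 and 105 CPM, where the other libraries had 281 to 494 CPM. Tuft-like cells had 55.9 CPM, 42.7 CPM and 50.7 CPM in the first 3 libraries and 7.18 CPM (1.48 to 21.0) in Cd40-/- RANKL-Ab, on 3 UMIs. Progenitor-like cells did not show so low a level. Id1 was 234 CPM, 326 CPM, 263 CPM and 203 CPM there, with a ratio of -0.37 (-0.59 to -0.16) between the 2 Cd40-/- libraries, or -0.50 without the shared barcodes.

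Id3 (chr4:136143497-136145755, plus strand) was highest in progenitor-like cells in 4 of 4 libraries, at 1091 CPM, 897 CPM, 827 CPM and 804 CPM. Among Ccl21a-high mTEC-like cells it was 560.4 CPM in WT-Control and 367 CPM in WT-RANKL-Ab, and 627 and 257 CPM in the Control and RANKL-Ab libraries of Cd40-/- mice. Both antibody libraries were lower than their controls, 1.53-fold in WT mice and 2.44-fold in Cd40-/- mice (log2 ratios -0.61, -0.65 to -0.57, and -1.29, -1.37 to -1.21). The share of cells with an Id3 UMI after thinning was 34.8%, 22.8%, 40.9% and 18.4%. Thymocyte-like cells had 22.2%, and Id3 is known to be expressed in thymocytes, so this share is no measure of free RNA. Thymocyte markers were at 31.2, 52.6, 39.7 and 57.0 CPM in sum in the Ccl21a-high mTEC-like cells. Their part in the Id3 levels was not tested. In progenitor-marker+ Ccl21a-high cells, the ratio between the Cd40-/- libraries was -1.28 (-1.47 to -1.09), or -1.44 without the shared barcodes, and that between the WT libraries was -0.12 (-0.33 to 0.10). In tuft-like cells Id3 was 72.7 CPM, 52.1 CPM, 77.9 CPM and 23.9 CPM, the last on 10 UMIs.

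Id2 (chr12:25093799-25097140, minus strand) went the same way in Ccl21a-high mTEC-like cells but by less, with 425 CPM, 422 CPM, 461 CPM and 252 CPM. The Cd40-/- RANKL-Ab level was 1.83-fold below Cd40-/- Control (log2 ratio -0.87, -0.95 to -0.79), and the WT libraries differed by 1.01-fold. In progenitor-like cells Id2 was 299.7 CPM, 308 CPM, 368 CPM and 388 CPM, the last 331 CPM without the shared barcodes. Tuft-like cells had a different order from those of Id1 and Id3, with 175 CPM in WT-Control, 219 CPM in WT-RANKL-Ab, and 234 and 287 CPM in the Cd40-/- libraries.

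Cd40-/- RANKL-Ab also differed in genes of the cell's early response. The summed level of 12 immediate early and heat shock genes, a list chosen after the data were seen (Fos, Fosb, Jun, Junb, Egr1, Atf3, Ier2, Dusp1, Zfp36, Socs3, Hspa1a and Hspa1b), was 3687 CPM, 3079 CPM, 4665 CPM and 6346 CPM in Ccl21a-high mTEC-like cells. All 12 genes were above WT-Control in each Cd40-/- library. In progenitor-like cells, where Id1 and Id3 were within 2-fold, the sum spanned a wider range, 2566, 3641, 5769 and 7396 CPM. It was 2880.3 to 4254 CPM in tuft-like cells and 1049.8 to 2136 CPM in cTEC-like cells. Its part in the Id and Fst levels was not tested. The mesenchymal marker sum in Ccl21a-high mTEC-like cells was 11.5, 7.10, 43.2 and 30.4 CPM.

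In cTEC-like cells none of the 10 genes was past 2-fold of WT-Control by the rule used here, for which 10 CPM were added to each level and the pair of libraries had to hold no fewer than 20 UMIs of the gene. WT-Control tended to be the lowest library. Bmp7 was 17.5 CPM there and 30.7 to 35.2 CPM in the others, Id2 was 50.5 CPM and 69.1 to 78.4 CPM, and Id3 was 74.5 CPM and 82.8 to 113 CPM. The WT-Control value rests on 141 cells, which also held 305 CPM of 5 myeloid markers, compared with 21.4, 41.5 and 6.01 CPM in the other libraries. Of this, Lyz2 made up 246 CPM, while the defining genes Csf1r and Itgax were at 0. Other marker lists were also highest in WT-Control, with 573 CPM of the Aire+ list against 228, 75.2 and 64.1 CPM, 119.9 CPM of the microfold list against at most 37.8 CPM, 64.8 CPM of the neuroendocrine list against 1.00 to 18.2 CPM and 209 CPM of the keratinocyte list against 54.8 to 89.5 CPM. Their part in the low WT-Control values was not tested. Of the 141 cells, 94 had no myeloid UMI. When cells with a myeloid UMI were left out of every library, the log2 ratio of Bmp7 (10 CPM added) in WT-RANKL-Ab was 0.55 in place of 0.72, and that of Wfikkn2 was 0.63 in place of 0.54. Fst in cTEC-like cells of Cd40-/- RANKL-Ab rested on the shared barcodes, with 30 UMIs (10.0 CPM) with them and 4 UMIs (1.93 CPM) without them.

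By the 2-fold rule, none of the 10 genes was called in progenitor-like cells, of which 9, 7 and 7 had at least 20 UMIs in the comparisons of the other 3 libraries with WT-Control. Of all genes with enough UMIs, 2.06%, 5.33% and 2.77% were called there. In Ccl21a-high mTEC-like cells, 8 genes had enough UMIs in each comparison. Only Fst was called in WT-RANKL-Ab (lower; 0.962% of all genes were called), none in Cd40-/- Control (0.921% of all genes), and Id1 and Id3 in Cd40-/- RANKL-Ab (both lower; 2.82% of all genes). In cTEC-like cells none of 8, 9 and 8 genes was called, compared with 5.47%, 7.91% and 7.86% of all genes. Counts of 1 or 2 genes are too few to read a share from. The median log2 ratio of the genes was close to that of all genes in Ccl21a-high mTEC-like cells, at -0.03, 0.07 and -0.03 against 0.05 in each comparison. In progenitor-like cells it was -0.06, -0.13 and -0.14 against 0.11, 0.18 and 0.10. In cTEC-like cells it was 0.14, 0.51 and 0.19 against 0.12, 0.18 and 0.16. The 3 comparisons share WT-Control.

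The pathway around these genes was read from lists of 24 ligands, 17 receptors and co-receptors, 20 antagonists and modulators, 13 SMADs and their regulators and 13 targets. The highest levels over all WT-Control cells within each list, on 3′ counts that are not divided by length, belonged to Bmp7, Tgfb1 and Bmp3; to Bmpr1a, Rgmb and Tgfbr1; to Wfikkn2, Htra1 and Fst; to Smad1, Smad4 and Tgif1; and to Id3, Id2 and Id1. Smad1, a BMP-branch SMAD, was at 137 CPM and the shared Smad4 at 36.3 CPM. In Ccl21a-high mTEC-like cells of Cd40-/- RANKL-Ab, none of 12 ligands, 14 receptors and 13 SMADs with at least 20 UMIs passed 2-fold from WT-Control. Of 13 antagonists 2 were higher, Fstl1 and Nbl1, and of 12 targets 2 were lower, Id1 and Id3, against 2.82% of all genes called in either direction. Fstl1, a secreted follistatin-like glycoprotein, was 86.2 CPM in WT-Control, 121 CPM in WT-RANKL-Ab, and 141 and 194 CPM in the Cd40-/- libraries. Nbl1, a secreted DAN-family BMP antagonist, was 17.3, 21.3, 23.2 and 55.1 CPM. The last library was the highest for both, and it also had the highest sum of progenitor markers in these cells (722 CPM). Progenitor-like cells had 122 to 176 CPM of Fstl1 and 81.7 to 139.9 CPM of Nbl1. The part of these markers in the Fstl1 and Nbl1 levels was not tested.

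In cTEC-like cells Fstl1 was 16.8, 23.6, 39.7 and 52.4 CPM and was past 2-fold in Cd40-/- RANKL-Ab. Smad3, an activin-branch SMAD, was 11.7 CPM in WT-Control and 33.6 CPM, 35.7 CPM and 36.4 CPM in the others, past 2-fold in all 3 comparisons, with WT-Control again the single low library. The BMP receptors Bmpr1a and Bmpr2 and the co-receptor Tgfbr3 were higher by more than 2-fold in Cd40-/- Control, 3 of 11 receptors against 7.91% of all genes, and the ligand Mstn was lower there. None of the 4 genes was called in an antibody library by this rule, for which 10 CPM were added. A missing call does not mean that a gene was unchanged there, so the calls do not show a change confined to Cd40-/- Control. The median log2 ratio of the 11 receptors was 0.47 in Cd40-/- Control, 0.07 in WT-RANKL-Ab and 0.55 in Cd40-/- RANKL-Ab. Whether the libraries differ in the 4 genes was not tested. In progenitor-like cells, Bmp3 was called lower in all 3 comparisons by the 2-fold rule, at 21.0, 1.03, 0.704 and 0 CPM. All 3 calls thus rest on the 129 cells of WT-Control, which also held more of other marker lists. Tgfb1 was called lower (34.0 and 11.3 CPM) and Tgfbr3 higher (38.0 and 103 CPM) in Cd40-/- Control than in WT-Control. Of all genes, 2.06%, 5.33% and 2.77% were called in the 3 comparisons. Sostdc1, a BMP and WNT antagonist, was called lower in both antibody libraries than in WT-Control. Both calls thus rest on the same 129 cells of WT-Control. A missing call in Cd40-/- Control does not mean that Sostdc1 was unchanged there. The Sostdc1 calls therefore do not show a change confined to the antibody libraries. Whether the antibody libraries differ from Cd40-/- Control in Sostdc1 was not tested. No SMAD and no target passed 2-fold in progenitor-like cells.

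Across 38 sums of a class in a library with at least 50 cells each, Fst and Wfikkn2 had a Pearson r of 0.84 on log2(CPM + 10), as had Fst and Id1, and Id1 and Id3 had 0.77. Bmp4 correlated most with Inhba (0.54) among the 10 genes, and Bmp2 ran opposite to Bmp7 (-0.57), Wfikkn2 (-0.51) and Bmp4 (-0.48). These sums share libraries and related classes, so the values describe the pattern and carry no p. The genes most like Fst over the same sums were Sult5a1 (0.98), Dkk3 (0.96) and Mgp (0.96), and those most like Wfikkn2 were Cyr61, Nhs and Sdk2 (0.93 each). Bmp4 was most like 2310065F04Rik (0.94), Frmpd1os (0.93) and Upb1 (0.91), whereas Bmp2 was most like Tcf7l1 (0.92), Olfm3 (0.91) and Vil1 (0.90). For Bmp7 the nearest were Clca2, Mgst1 and Zfp703 (0.82 to 0.83), for Inhba Col23a1, Nid1 and Aldh1a1 (0.76 to 0.84) and for Inhbb Scnn1b, Myom3 and Ap3b2 (0.78 to 0.82). Id1 was most like Efna4, Phf11d and Mgat5b (0.90 each), Id2 like Rhoc, Slfn5 and Igfbp4 (0.84 to 0.85), and Id3 like Ly6e, Degs1 and Cd81 (0.87 to 0.88).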

How the data were processed

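Droplet 3′ single-cell RNA-seq was deposited as 1 matrix of raw UMI counts per library, made by the authors with Cell Ranger on mm10; the matrix header gives version 5.0.1 and the labels give 5.1. The labels name the v2 kit and the study's methods a later one. The counts were read as deposited. Genes found in more than 5 cells were used to filter cells at 200 genes and 25% mitochondrial UMIs. Depth was 19153685 to 95277834 UMIs per library.

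Cells were placed in 15 classes by 12 marker gates (UMIs per 10000 and a minimum of detected markers), with cuts set after the scores were seen; cells that passed incompatible gates were set apart as mixed and those that passed none are reported apart. No clustering and no doublet caller was run, and leaving out the 10% of cells with the most UMIs served as a guard. UMIs were summed per class and library and divided by the class total (CPM). Intervals are exact Poisson (levels), exact conditional binomial (ratios) and Clopper-Pearson (shares) intervals at 95%, covering counting error only. A gene was called at a log2 ratio of at least 1 after 10 CPM was added, with a sum of 20 or more UMIs over the pair of libraries. The ratio code was tested on simulated data.

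The members, marker genes and pathway lists were chosen with earlier results of these data known. Named were all 10 genes, the 3 highest genes of each list in WT-Control, list genes past 2-fold between WT-Control and the Cd40-/- RANKL-Ab library with at least 50 UMIs, and the 3 most similar genes of each member with at least 200 UMIs; other list genes past 2-fold in another comparison and the splits by Gpx3 and Mgp or cTEC markers were added after their values were seen. Gene positions are from GENCODE M21 (GRCm38) and promoters from RefSeq. Alternatives were other filters, gates, scales (TMM of edgeR 4.0.16), added CPM and minimum counts. Software was R 4.3.3 and Python 3.11.15 with scipy 1.17.1, numpy 2.4.6, matplotlib 3.10.9 and pandas 2.3.3.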

Additional observations from a re-analysis of the deposited data

Results flagged for a closer look

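In the results of this paragraph, the antibody ratio had opposite directions in WT and in Cd40-/- mice, with both counting intervals clear of 0. The difference between the genotypes was not tested, because each condition is 1 library. How often all genes meet this rule was not computed, so these ratios give no result about the genes as a set. Fst in progenitor-like cells had a log2 ratio of -0.73 (-1.01 to -0.44) in WT and 0.38 (0.03 to 0.73) in Cd40-/- mice, the latter 0.42 without the shared barcodes. Fst in Ccl21a-high mTEC-like cells had -1.25 (-1.34 to -1.16) and 0.34 (0.23 to 0.45), the latter 0.38 without them. In progenitor-marker+ Ccl21a-high cells Fst had -0.85 (-1.30 to -0.39) and 0.35 (0.05 to 0.65), the latter 0.27 (-0.03 to 0.57) without the shared barcodes, so that its interval then included 0. Id1 in progenitor-like cells had 0.48 (0.27 to 0.69) and -0.37 (-0.59 to -0.16), the latter -0.50 without them. Wfikkn2 in Ccl21a-high mTEC-like cells had 0.17 (0.12 to 0.22) and -0.17 (-0.26 to -0.08), the latter -0.13 without them. Id3 in cTEC-like cells had 0.31 (0.01 to 0.63) and -0.45 (-0.68 to -0.23), the latter -0.50 without them, and with doubled gate cuts the ratios were -0.03 and 0.04 on the scale with 10 CPM added.

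Cells that passed no gate enter the levels over all cells and the weighting by the 9 shared groups but no comparison by class. Their levels of Bmp4, Fst, Wfikkn2, Id1, Id2 and Id3 were at least 2-fold above WT-Control, over the whole interval, in 1 or more libraries. No share of all genes was computed for this rule, so it gives no result about these genes as a set. Bmp4 was 1.52 CPM in WT-Control, 5.88 CPM in WT-RANKL-Ab (log2 ratio 1.95, 1.01 to 2.91) and 15.3 CPM in Cd40-/- RANKL-Ab (3.33, 2.19 to 4.42), on 19, 23 and 13 UMIs. In Cd40-/- RANKL-Ab the log2 ratios of Fst, Wfikkn2, Id1, Id2 and Id3 were 2.80, 2.42, 1.55, 1.25 and 2.04, and Id1 had 1.30 in WT-RANKL-Ab. These cells were 17.4%, 13.8%, 20.4% and 6.68% of the 4 libraries, and what they are was not tested.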

How the results depend on the processing

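All 5 log2 ratios past 2-fold in the 3 main classes stayed past it under all 11 alternatives: Fst in WT-RANKL-Ab (-1.24 to -1.09), Id1 in Cd40-/- RANKL-Ab against WT-Control (-1.92 to -1.72) and against Cd40-/- Control (-1.95 to -1.78), and Id3 likewise (-1.26 to -1.08 and -1.44 to -1.23), all in Ccl21a-high mTEC-like cells and with 10 CPM added except where 1 CPM was added. Of the counts of called genes, the one in progenitor-like cells of Cd40-/- Control went from 0 to 1 (Fst) under TMM factors and under 1 CPM added, and the one in cTEC-like cells of Cd40-/- Control from 0 to 1 (Bmp2, 28 UMIs against 2) under 1 CPM added. The other 105 recomputed counts stayed within 1.5 times. With the 9 groups weighted as in WT-Control, 6 log2 ratios over all cells that were past 1 with nothing added dropped below it: Bmp4 (0.81 with the antibody in WT mice, 0.41 in Cd40-/- Control), Wfikkn2 (0.24 and 0.34 with the antibody in WT and Cd40-/- mice), and Bmp2 (-0.52) and Fst (0.63) in Cd40-/- RANKL-Ab. With 10 CPM added only 4 of these were past 1 over all cells, since Bmp4 had 0.27 and 0.19. Weighting moved Inhba (-1.17 to -2.47) and Id1 (-0.68 to -1.17) in Cd40-/- RANKL-Ab and Inhba (-0.97 to -1.25) and Fst (-0.12 to -1.11) in WT-RANKL-Ab away from 0. With the 7 gated classes alone, added after seeing the data, Bmp4 in WT-RANKL-Ab turned from 1.81 to -0.16 and Bmp2 in Cd40-/- RANKL-Ab from -1.95 to 0.63, Bmp4 and Inhba in Cd40-/- RANKL-Ab fell below 2-fold (0.73 and -0.33), and Id1 there was -1.78. Doubled gate cuts brought the ratio of Id3 between Cd40-/- Control and WT-Control in cTEC-like cells from 0.55 to 0.01 and that of Id1 from 0.54 to -0.42, neither called. Leaving out the shared barcodes, an alternative chosen after seeing the data, turned the ratio of Fst in cTEC-like cells of Cd40-/- RANKL-Ab from 0.28 to -0.47 against WT-Control and from 0.32 to -0.41 against Cd40-/- Control, neither called. No paired analysis was possible because each condition is 1 library of pooled mice and no test was run. Depth limits Inhba, Inhbb and Bmp2 in progenitor-like and cTEC-like cells, where a library held 0 to 49 UMIs.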

Other observations

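Some member levels belong to classes that the report did not compare. Thymocyte-cTEC complexes, droplets with both thymocyte and cTEC markers, had Bmp4 at 5.08 to 11.2 CPM and Wfikkn2 at 57.8 to 64.6 CPM, close to the ranges of cTEC-like cells, and Id3 at 117 to 227 CPM, compared with 74.5 to 113 CPM in cTEC-like cells and 192 to 388 CPM in thymocyte-like cells. Id2 was 135 CPM in 1 and 392 CPM in the other of the 2 libraries with at least 20 enterohepatic-like cells, and 185 to 363 CPM in microfold-like cells, the classes that were also rich in Bmp2. Id1 was 3.70 to 13.1 CPM in the same enterohepatic-like cells. Keratinocyte-like cells held Id3 at up to 200.1 CPM and Id2 at 29.8 CPM or more. Cycling Ccl21a-high cells had Id1 at 251 to 352 CPM and cycling Ccl21a-low cells at 30.6 to 202 CPM, the highest of these in the 41 cells of WT-RANKL-Ab.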
